A study of Homo sapiens with 12 samples.

Results

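Transcript levels of genes that move, store and sense iron were measured in human kidney cancer cells in which FoxO1 or FoxO3 could be switched on. The genes were taken from a list of 10: the iron exporter SLC40A1, the uptake genes TFRC, STEAP3, SLC11A2 and SLC39A14, the storage gene FTL, the heme-degrading enzyme HMOX1, the iron-regulated aconitase ACO1, and 2 others that had no probe set named to them alone in the annotation used and are not analysed here. The 8 measured genes were represented by 22 probe sets, and all 8 were among the 14285 genes tested, of 19775 genes with a probe set. RCC4 and UMRC2, both established kidney cancer lines, carried a stable FoxO1(TA)ERT2 fusion, a FoxO3(TA)ERT2 fusion or ERT2 alone, the last called EV for empty vector. In the TA forms the 3 serine or threonine residues that AKT phosphorylates were changed to alanine, and ERT2, a modified estrogen receptor part, holds the fusion in the cytoplasm until 4-hydroxytamoxifen (4OHT) is added. All lines were grown under puromycin in medium with serum and received 100 nM 4OHT or ethanol vehicle for 12 h. Each of the 12 combinations of cell line, construct and treatment had 1 Affymetrix U133 Plus 2.0 array. Both lines had low FoxO1 and FoxO3 of their own according to the series description. In the vehicle arrays the brightest FOXO3 probe set read 10.19 to 11.65 on the log2 scale and the dimmest 4.20 to 6.31. The array median was 6.67. The brightest FOXO1 probe set read 6.46 to 7.43 in the vehicle arrays. With 4OHT it read 8.94 in RCC4 FoxO3 and 8.30 in UMRC2 FoxO3. Whether these probe sets detect the fusions was not tested. The promoter of the transgene, and whether each line was a clone or a pool, are not given in the sources used here.

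Cells take up transferrin-bound iron through TFRC, the transferrin receptor, reduce it in the endosome with STEAP3, a ferrireductase, and pass it to the cytosol through SLC11A2 (DMT1), a divalent metal transporter. SLC39A14 (ZIP14) imports iron that is not bound to transferrin. Iron that is not used is kept in ferritin, of which FTL encodes the light chain, and SLC40A1 (ferroportin) is the only known exporter of inorganic iron in vertebrates. ACO1, when it has lost its iron-sulfur cluster, is iron regulatory protein 1, which binds iron-responsive elements in mRNAs such as those of TFRC, FTL and SLC40A1, and HMOX1 releases iron from heme. FoxO proteins are transcription factors that leave the nucleus when AKT phosphorylates them.

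The promoters of the 3 genes that passed the test in FoxO3 against EV are printed here, since the arrays measured transcripts of these genes with and without a transcription factor moved to the nucleus. They are the 250 bases before the RefSeq start, 5′ to 3′ on the gene's strand, in GRCh38.p14. Capitals mark the letters ACGTG, the core of the hypoxia response element.
SLC40A1, chr2:189580787-189581036, minus strand: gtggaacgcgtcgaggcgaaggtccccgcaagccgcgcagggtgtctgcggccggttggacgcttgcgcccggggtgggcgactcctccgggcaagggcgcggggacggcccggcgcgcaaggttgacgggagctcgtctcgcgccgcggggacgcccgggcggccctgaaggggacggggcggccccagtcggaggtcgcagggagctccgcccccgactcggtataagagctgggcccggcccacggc
TFRC, chr3:196082091-196082340, minus strand: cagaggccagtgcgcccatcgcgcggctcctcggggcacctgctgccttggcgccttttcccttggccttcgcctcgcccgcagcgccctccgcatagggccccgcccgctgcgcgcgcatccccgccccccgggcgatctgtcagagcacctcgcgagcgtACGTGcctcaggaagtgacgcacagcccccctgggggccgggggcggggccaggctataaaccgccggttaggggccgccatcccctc
STEAP3, chr2:119223584-119223833, plus strand: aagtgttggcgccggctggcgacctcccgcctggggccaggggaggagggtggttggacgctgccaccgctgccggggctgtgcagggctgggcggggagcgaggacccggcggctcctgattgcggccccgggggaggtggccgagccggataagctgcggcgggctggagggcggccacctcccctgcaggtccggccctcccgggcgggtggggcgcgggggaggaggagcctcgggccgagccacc
These windows were rich in G and C, at 77.2% for SLC40A1, 74.4% for TFRC and 78.4% for STEAP3, against a median of 58% over all 35116 RefSeq windows. The FoxO site GTAAACA, searched on both strands, was in none of them, nor in any of the 9 windows of the 6 measured genes that had one; 2.98% of all windows held it. The FoxO core TGTTT, on both strands, was in 40.4% of all windows and in 1 window of SLC11A2. ACGTG, on both strands, was in 18.5% of all windows, and among these genes in those of TFRC and FTL. The antioxidant response letters TGACNNNGC, on both strands, were in none of these genes' windows and in 10.9% of all windows. The iron-responsive element loop CAGTG, read on the transcribed strand in the first 50 bases after the start, was in 6.48% of all windows and among these genes only in that of FTL, the mRNA of the ferritin light chain. No match in such a window says only that the letters are not there.

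Levels are given as log2 of the quantile-normalised probe set intensity, and a response is the level with 4OHT minus the level with vehicle in the same engineered line. Values set side by side are of 1 probe set, and levels of different genes were not compared. In bulk RNA of this kind, fewer cells with a transcript and less of it per cell cannot be told apart. The fusions were read through 5 of the 9 ESR1 probe sets. These were chosen because in vehicle they were at least 2 higher on the log2 scale in every fusion line than in EV. The other ESR1 probe sets were not. That the chosen 5 exceed EV follows from the choice and is no check of the fusions. Their median level in vehicle was 9.22 in RCC4 FoxO1 and 12.49 in RCC4 FoxO3, and 5.28 in RCC4 EV. In UMRC2 it was 12.29 with FoxO1, 13.23 with FoxO3 and 4.63 with EV. The FoxO3 line had the higher reading of the fusions in both cell lines, and both EV lines, labelled as expressing ERT2, read below the array median of 6.67. Of 8 kidney markers measured, 7 were at or above the array median on 11 or 12 arrays, PAX8 at 11.17 to 12.58, and LHX1 on none. Of 9 markers of leukocytes, endothelium, fibroblasts and red cells, PECAM1, COL1A1, DCN and HBB were above the median in all 12 arrays, and PTPRC, CD14, CDH5 and ALAS2 in none; their part in the results was not tested. The 18 hybridisation control probe sets had a geometric mean intensity of 2515 in RCC4 FoxO3 with 4OHT, 4212 to 4699 in the other 5 RCC4 arrays and 2239 to 2463 in the UMRC2 arrays. The RCC4 FoxO3 pair therefore spans both levels, and results that rest on it are also given without it.

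The iron exporter SLC40A1 was the gene of the set that moved most. In RCC4 FoxO3 its level was 12.50 with 4OHT and 6.28 with vehicle, a ratio of intensities of 74.7. In UMRC2 FoxO3 it was 12.26 with 4OHT and 6.61 with vehicle, a ratio of 50.4. The intensities with 4OHT were 5790 in RCC4 FoxO3 and 4912 in UMRC2 FoxO3, and both vehicle arrays were under the array median of 6.67. In RCC4 FoxO1 the level was 9.08 with 4OHT and 6.29 with vehicle, a ratio of 6.91, and in UMRC2 FoxO1 it was 11.11 with 4OHT and 6.80 with vehicle, a ratio of 19.8. The EV lines stayed low, at 6.24 with 4OHT and 6.27 with vehicle in RCC4 and at 6.57 with 4OHT and 6.45 with vehicle in UMRC2. The highest of the other 8 arrays was 6.80, and how many of all genes separate the arrays in this way was not counted. The vehicle and EV readings of SLC40A1 are dim. Of the 2 red cell markers measured, ALAS2 read 5.00 to 6.44 and HBB 8.03 to 8.82, so these markers give no single background level. No detection call was used, so the vehicle and EV readings are not shown to lie above background, and the ratios rest on them.

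**Figure D1:**
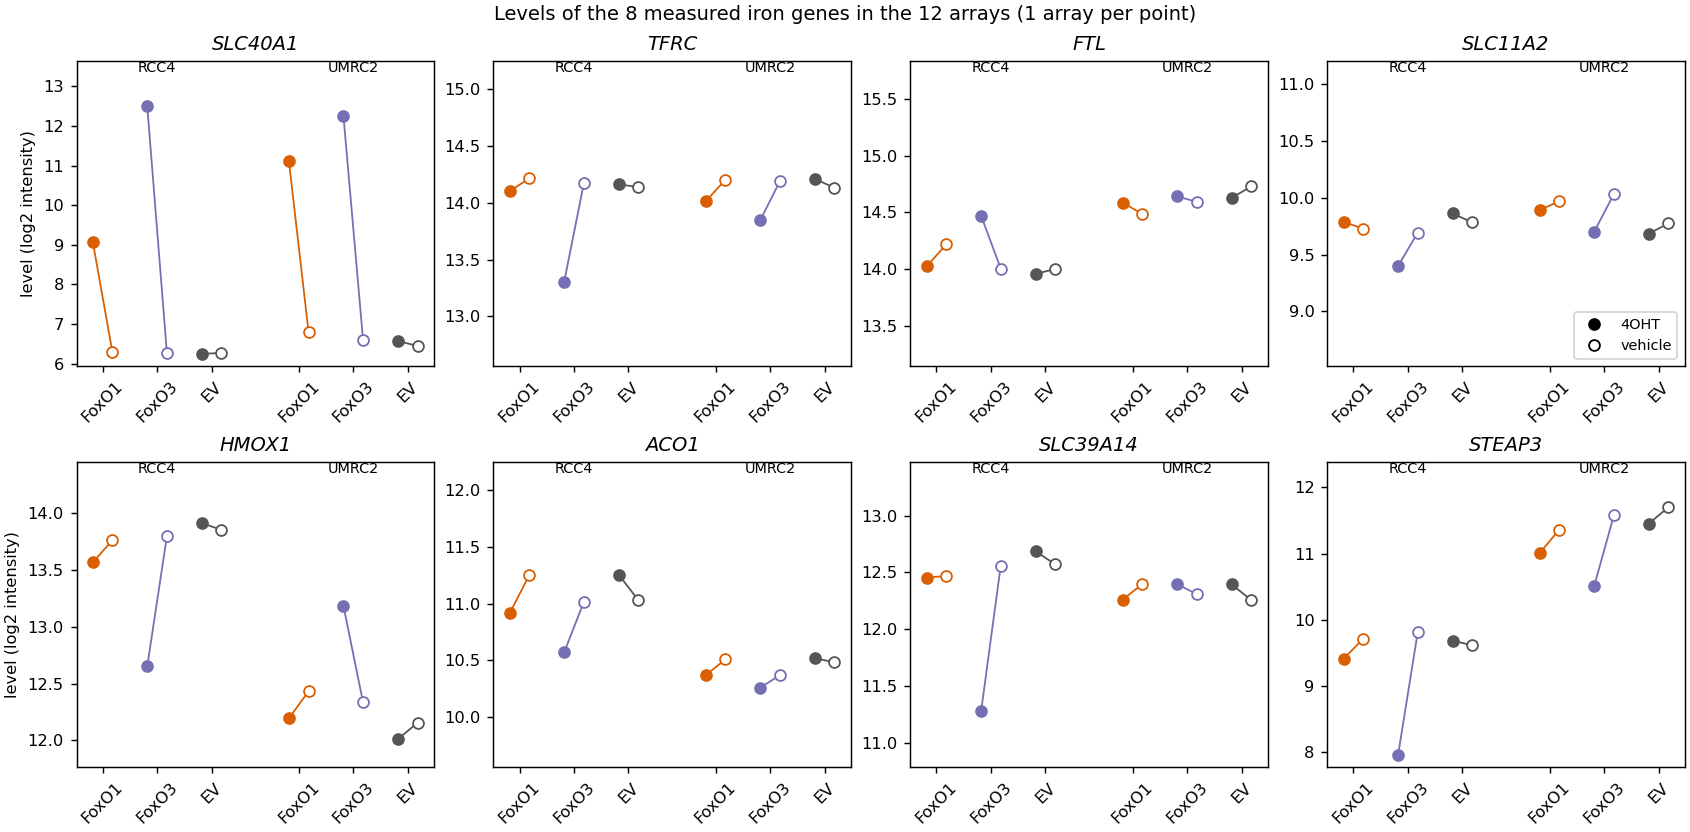
Levels of the 8 measured iron genes (log2 intensity, vertical axis, a range of its own in each panel) in the 12 arrays, filled circles for 4OHT and open circles for vehicle, joined within an engineered line; 1 array per point. SLC40A1 in the FoxO lines with 4OHT sits between 9.08 and 12.50, above its other arrays; for STEAP3 and TFRC the 4OHT point lies furthest below vehicle in the FoxO3 lines.

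The response of SLC40A1 in the FoxO lines exceeded that in the EV lines by 4.69 ± 0.43 on the log2 scale (SE, n = 2 cell lines per construct; limma, adjusted p = 0.00454), a ratio of 25.9. For FoxO3 alone the excess over EV was 5.89 ± 0.50 (adjusted p = 0.00147 in limma). For FoxO1 alone it was 3.50 ± 0.50, with a 95% interval of 2.34 to 4.66, but with an adjusted p of 0.0634 in limma it was not past the threshold of 0.05. With 1 culture per combination, the spread behind these p-values is how far the differences between constructs vary from 1 cell line to the other, together with array noise. It is pooled over the constructs and moderated by the other genes, and it is not that between repeat cultures. With no filter on dim probe sets or with a constant prior variance the differences stayed at 4.69 and 5.89 and the calls were lost, at an adjusted p in limma of 0.155 and 0.165 in FoxO against EV and of 0.0791 and 0.0724 in FoxO3 against EV. The dimmer probe set gave 0.44 (adjusted p = 0.528 in limma) and 1.03 (0.147). Without the RCC4 FoxO3 pair, with 1 FoxO3 line left, the FoxO3 excess was 5.19. In FoxO1 against EV the value was 2.63 without the UMRC2 FoxO1 pair and 4.36 without the RCC4 FoxO1 pair, each with 1 FoxO1 line left. SLC40A1 reached the array median in 5 arrays, the 4 with FoxO and 4OHT and UMRC2 FoxO1 with vehicle, so that it passed the filter of 2 arrays only through those where it is high; a gene let in that way had to differ between them and the rest. Its other, dimmer probe set (mean level 7.33) had responses of 1.60 in RCC4 FoxO3 and 1.28 in UMRC2 FoxO3, against 0.56 in RCC4 EV and 0.26 in UMRC2 EV, and 0.23 and 0.31 in RCC4 FoxO1 and UMRC2 FoxO1; the FoxO1 responses were within 0.33 of those of EV.

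**Figure D2:**
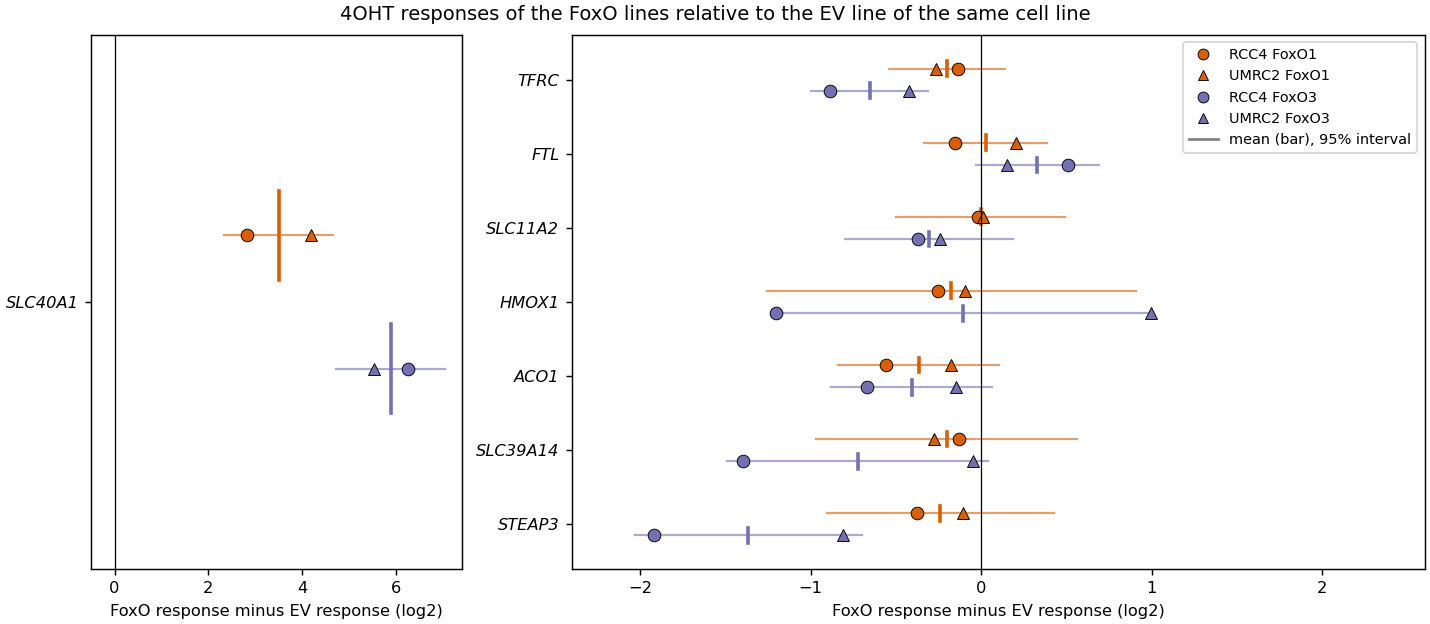
Response of each FoxO line minus that of the EV line of the same cell line (log2, horizontal axis; left panel SLC40A1, right panel the other 7 genes, on a scale of their own), circles for RCC4 and triangles for UMRC2; the upright bar is the mean of both lines and the line its 95% interval from limma. SLC40A1 lies between 2.81 and 6.25, and the FoxO3 intervals of TFRC and STEAP3 lie below 0.

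The genes with response patterns closest to that of SLC40A1 over the 6 engineered lines were chosen by the smallest root mean square difference of their 6 responses among genes with no array at the floor; they were CCN2 (0.70), a matricellular growth factor, DOCK8 (0.80), a guanine nucleotide exchange factor, CLTRN (0.87), a transmembrane protein of the kidney, HNMT (1.12), a histamine methyltransferase, and ANKRD55 (1.32). Their responses in FoxO3 lines ran from 3.93 to 5.43, and in the EV lines from -0.83 to 0.66. CLTRN differed from SLC40A1 in its FoxO1 response, 4.21 in RCC4 against 2.79 for SLC40A1. This likeness is a description of the values of 6 pairs of arrays and no test was made of it.

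Of the 4 uptake genes, TFRC and STEAP3 fell under FoxO3 relative to EV and the other 2 did not pass the test. TFRC, the receptor for transferrin, was at 13.31 with 4OHT and 14.17 with vehicle in RCC4 FoxO3, and at 13.85 with 4OHT and 14.19 with vehicle in UMRC2 FoxO3. The intensity ratios were 0.549 and 0.788. The remaining 10 arrays lay between 14.02 and 14.22, and how many of all genes separate the arrays in this way was not counted. The FoxO3 response minus that of EV was -0.65 ± 0.15 in limma (SE, n = 2 cell lines; adjusted p = 0.0224), made up of -0.89 in RCC4 and -0.42 in UMRC2. Without the RCC4 FoxO3 pair it was -0.39 (adjusted p = 0.0754 in limma), without the RCC4 EV pair -0.57 (0.113), and without the UMRC2 EV pair -0.74 (0.0602). It also missed the threshold with each array divided by its median (-0.77, adjusted p = 0.0555 in limma), as deposited (-1.06, 0.326) and by the mean of its probe sets (-0.58, 0.103), and at the same -0.65 with no filter (0.209) or a constant prior variance (0.204). The next brightest TFRC probe set (mean level 13.4) gave -0.99 in RCC4 and -0.60 in UMRC2, another (10.9) -1.33 and -0.91, in the same direction, and of the 2 dimmest, 1 at the array median (6.71) gave 0.68 and 0.13 and the other, at the floor in 6 arrays, -0.70 and -0.82.

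STEAP3, the endosomal ferrireductase, was at 7.96 with 4OHT and 9.81 with vehicle in RCC4 FoxO3, and at 10.52 with 4OHT and 11.58 with vehicle in UMRC2 FoxO3. Its intensity ratios were 0.277 and 0.479, the lowest of the set in each cell line. In the EV lines it was at 9.69 with 4OHT and 9.62 with vehicle in RCC4, and at 11.45 with 4OHT and 11.70 with vehicle in UMRC2. In each cell line the FoxO3 array with 4OHT was lower than the other 5, and how many of all genes share this order was not counted. FoxO3 minus EV was -1.37 ± 0.28 in limma (SE, n = 2 cell lines; adjusted p = 0.0176), with -1.92 in RCC4 and -0.81 in UMRC2. It was -0.88 without the RCC4 FoxO3 pair (adjusted p = 0.0633 in limma) and -1.02 without the RCC4 EV pair (0.106), and as deposited it was -1.76 (0.0675). At the same -1.37, the adjusted p in limma was 0.164 with no filter and 0.118 with a constant prior variance. The dimmer STEAP3 probe set went the same way, at -3.72 in RCC4 and -1.13 in UMRC2.

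SLC11A2 and SLC39A14, the divalent metal transporter and the importer of iron not bound to transferrin, did not pass the test. SLC11A2 was at 9.40 with 4OHT and 9.69 with vehicle in RCC4 FoxO3. In UMRC2 FoxO3 it was at 9.70 with 4OHT and 10.03 with vehicle. FoxO3 minus EV was -0.31, with a 95% interval of -0.80 to 0.19, and -0.25 without the RCC4 FoxO3 pair. The next SLC11A2 probe set, as bright as the one used (mean level 9.78), gave -0.19 in RCC4 and 0.28 in UMRC2, with a mean of 0.04. Another (9.63) gave -0.03 and -0.25. SLC39A14 was at 11.28 with 4OHT and 12.56 with vehicle in RCC4 FoxO3, and at 12.39 with 4OHT and 12.31 with vehicle in UMRC2 FoxO3. The difference from EV was -1.40 in RCC4 and -0.05 in UMRC2, so its mean of -0.72 ± 0.33 (adjusted p = 0.189 in limma) rests on the RCC4 FoxO3 pair, without which it was -0.01. Without the UMRC2 FoxO3 pair, with 1 FoxO3 line left, it was -1.43.

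**Figure D3:**
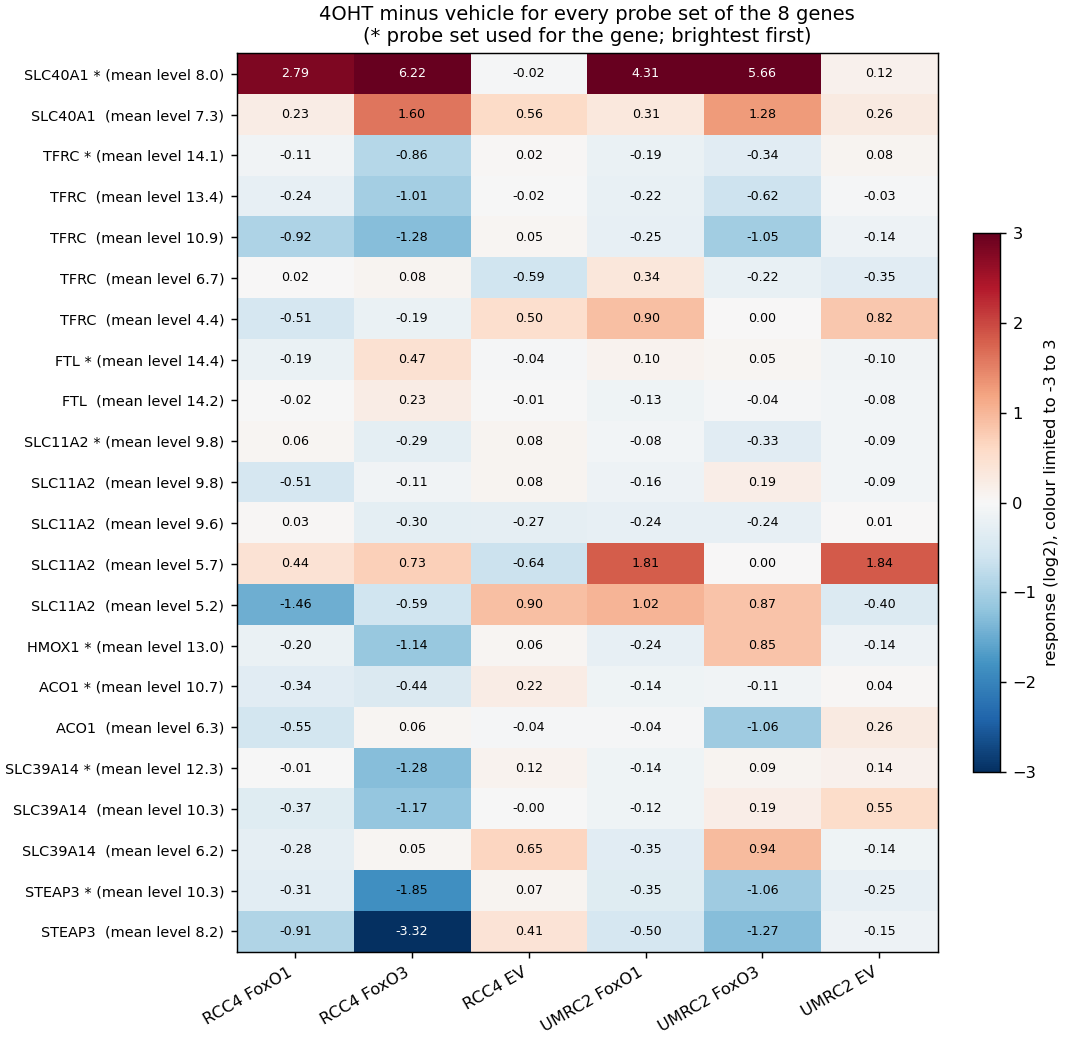
Response (4OHT minus vehicle, log2) of each of the 22 probe sets of the 8 genes in the 6 engineered lines, red above 0 and blue below, with the value in each cell and colour limited to -3 to 3; an asterisk marks the probe set used for the gene. The brightest 3 TFRC probe sets and both STEAP3 probe sets are lowest in the RCC4 FoxO3 line, and the SLC40A1 probe sets are highest in the FoxO3 lines.

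The storage gene FTL, which encodes the ferritin light chain, did not pass the test under FoxO3. It was at 14.47 with 4OHT and 14.00 with vehicle in RCC4 FoxO3, and at 14.64 with 4OHT and 14.59 with vehicle in UMRC2 FoxO3. FoxO3 minus EV was 0.33 ± 0.16 (95% interval -0.03 to 0.69; adjusted p = 0.206 in limma), and -0.15 with the values as deposited. It was 0.06 without the RCC4 FoxO3 pair and 0.60 without the UMRC2 FoxO3 pair, each with 1 FoxO3 line left. Both FTL probe sets are of the type that the design allows to match several similar sequences, FTL has many pseudogene copies, and its values are therefore uncertain. ACO1, the bifunctional aconitase and iron regulatory protein, was at 10.57 with 4OHT and 11.02 with vehicle in RCC4 FoxO3, and at 10.26 with 4OHT and 10.37 with vehicle in UMRC2 FoxO3. It lay below EV in all 4 FoxO lines, by -0.67 to -0.15, and FoxO minus EV was -0.39 ± 0.17 (adjusted p = 0.242 in limma), which did not pass the test; without the RCC4 FoxO3 pair it was -0.30.

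HMOX1, which releases iron from heme, had responses of opposite sign in the FoxO3 lines. It was at 12.65 with 4OHT and 13.80 with vehicle in RCC4 FoxO3, and at 13.19 with 4OHT and 12.34 with vehicle in UMRC2 FoxO3. The response minus EV was -1.20 in RCC4 and 0.99 in UMRC2, and in FoxO1 lines it was -0.26 and -0.09. The mean over both FoxO3 lines was -0.11 ± 0.46 (adjusted p = 0.916 in limma); without the RCC4 FoxO3 pair it was 0.95 (0.00539) and without the UMRC2 FoxO3 pair -1.16 (0.00183). The difference between the lines, over both isoforms, was tested and did not pass (RCC4 minus UMRC2 -1.18 ± 0.80, adjusted p = 0.9996 in limma). That test took the isoforms of a line as its replicates, so a line difference under FoxO3 alone counts partly as spread. A line difference under FoxO3 alone was not tested. HMOX1 has 1 probe set in the set used.

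Counted over the 8 genes, 1 rose and none fell in FoxO against EV, 0 passed in FoxO1 against EV, and 1 rose and 2 fell in FoxO3 against EV, in each case at an adjusted p under 0.05 in limma. Over all genes tested 7.79% passed in FoxO against EV (3.09% higher, 4.70% lower), 0.0840% in FoxO1 against EV (all higher) and 16.6% in FoxO3 against EV (6.60% higher, 10.0% lower). At an unadjusted p under 0.05, 1 of the 8 passed in FoxO1 against EV, SLC40A1, and 1431 of the 14285 genes tested did. The median difference of the 8 was -0.27 in FoxO against EV, beside -0.05 over all genes, and -0.36 in FoxO3 against EV, beside -0.07. These comparisons share the EV arrays.

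Compared directly, the SLC40A1 response under FoxO3 exceeded that under FoxO1 by 2.39 ± 0.50 on the log2 scale (SE, n = 2 cell lines; adjusted p = 0.0373 in limma), a ratio of 5.24, and it was the only one of the 8 to pass; 5.82% of all genes passed (2.17% higher, 3.65% lower). The difference was 1.53 without the RCC4 FoxO1 pair (adjusted p = 0.247 in limma) and 1.69 without the RCC4 FoxO3 pair (0.13), and it missed the threshold by the mean of the probe sets (1.78, 0.0573) and as deposited (2.30, 0.0956). STEAP3 was at -1.13 ± 0.28 (95% interval -1.79 to -0.46, adjusted p = 0.0638 in limma) and TFRC at -0.45 ± 0.15 (-0.79 to -0.11, adjusted p = 0.121), both lower under FoxO3 than FoxO1 in the estimate but not past the threshold. Without the RCC4 FoxO3 pair, STEAP3 was at -0.64 and TFRC at -0.19. The ESR1 reading of the fusion was higher in the FoxO3 line than in the FoxO1 line of both cell lines, as given above; its part in the difference between isoforms was not tested. In FoxO1 against EV, the 7 genes other than SLC40A1 had estimates between -0.37 and 0.02 with adjusted p of 0.608 or more in limma.

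None of the 8 genes passed the test for 4OHT in the EV lines or for the fusion without 4OHT. In the EV lines 4OHT minus vehicle ran from -0.09 to 0.13, with an adjusted p of 1 for each in limma. Over all genes 0% passed, 338 had an unadjusted p under 0.05, and 0 of the 8 did. In vehicle, the FoxO lines minus EV differed by at most 0.14 (SLC40A1, 95% interval -0.62 to 0.89), and 0% of all genes passed, with 1028 at an unadjusted p under 0.05. No gene passed in the test of the FoxO response in RCC4 against UMRC2 (0%), where 338 genes had an unadjusted p under 0.05 and none of the 8 did. That comparison has 1 EV pair a line, and SLC40A1 had a 95% interval of -5.29 to 4.63, wider than the differences between lines described above. It takes the isoforms of a line as replicates, so differences between isoforms count as spread.

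Before 4OHT the cell lines differed in 5 of the 8 genes, beside 50.2% of all genes (26.6% higher in RCC4, 23.6% lower). The 3 vehicle arrays of a cell line are its 3 constructs, so their spread is that between engineered lines and not between repeat cultures. HMOX1 averaged 13.80 ± 0.05 in RCC4 and 12.31 ± 0.14 in UMRC2 (SD, n = 3 vehicle arrays each), a difference of 1.50 ± 0.07 (limma, adjusted p = 1.53e-05). ACO1 averaged 11.10 ± 0.13 in RCC4 and 10.45 ± 0.07 in UMRC2 (adjusted p = 0.000446 in limma), and SLC39A14 was higher in RCC4 by 0.21 ± 0.06 (0.0263). The SLC39A14 call held in 8 of 15 alternatives, with values of 0.16 to 1.08 and adjusted p up to 0.147 in limma; it was lost without either EV array (0.16) or either FoxO3 array (0.19), with no filter, with a constant prior variance and by the mean of its probe sets. STEAP3 averaged 9.72 ± 0.10 in RCC4 and 11.55 ± 0.17 in UMRC2 (adjusted p = 2.28e-05 in limma). FTL was 14.07 ± 0.12 in RCC4 and 14.60 ± 0.12 in UMRC2 (adjusted p = 0.0022 in limma), while its second probe set was 0.29 higher in RCC4. TFRC did not pass (95% interval -0.08 to 0.08). The hybridisation controls were brighter on all RCC4 vehicle arrays than on the UMRC2 ones, so that array level and cell line cannot be told apart. As deposited, 88.2% of the genes that passed were higher in RCC4, against 53.0% after quantile normalisation.

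**Figure D4:**
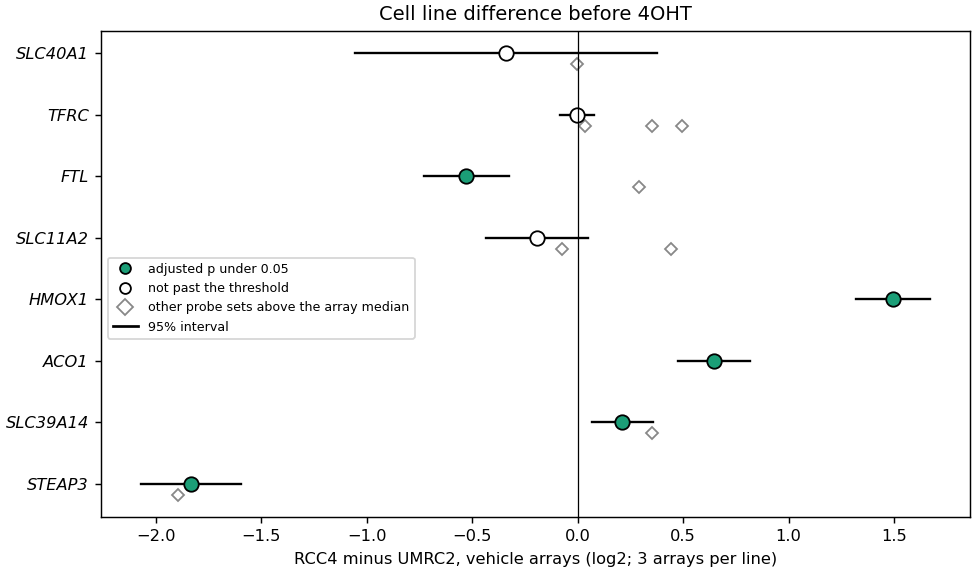
RCC4 minus UMRC2 in vehicle (log2, horizontal axis; 3 arrays per line), with the 95% interval from limma; filled circles passed the test, open circles did not, and diamonds are the other probe sets above the array median. HMOX1 (1.50) and ACO1 (0.65) lie right of 0 and STEAP3 (-1.83) left; FTL's probe sets lie on opposite sides of 0.

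Around these 8, the wider iron and heme genes were counted in lists, 72 genes tested in all, 64 of them not among the 8. Of the 64, 4 rose and 5 fell in FoxO against EV, and 9 rose and 10 fell in FoxO3 against EV. Over all genes tested, 3.09% rose and 4.70% fell in FoxO against EV, and 6.60% rose and 10.0% fell in FoxO3 against EV. The medians of the 64 were -0.04 and -0.05, beside -0.05 and -0.07 over all genes tested. In FoxO against EV the 15 uptake genes had a median of -0.15 and ran from -1.36 to 1.15. The 4 export genes ran from -0.82 to 4.69, the value of SLC40A1. Their median of 1.12 includes SLC40A1 and lies between genes far apart. Of 4 export genes 2 rose in FoxO against EV, SLC40A1 and CP (ceruloplasmin, a ferroxidase). CP was 2.19 ± 0.32 above EV (adjusted p = 0.0109 in limma), with responses of 3.13 in RCC4 FoxO3 and 2.46 in UMRC2 FoxO3, 0.59 in RCC4 FoxO1 and 1.66 in UMRC2 FoxO1, against -0.16 in RCC4 EV and -0.30 in UMRC2 EV. FLVCR1, a heme exporter, fell under FoxO3 (-1.36 ± 0.24, adjusted p = 0.00897 in limma); it is named after its value was seen. Of 15 uptake genes none rose and 1 fell in FoxO against EV, SLC48A1, an endosomal heme transporter (-1.36 ± 0.23, adjusted p = 0.0165 in limma).

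Of 6 storage and delivery genes 1 fell in FoxO against EV, PCBP1, an iron chaperone for ferritin (-0.60 ± 0.11, adjusted p = 0.018 in limma), and of 5 sensing genes none passed, FBXL5, the iron-sensing part of a ubiquitin ligase, having -0.33 (0.347). Of 7 genes of hepcidin control 1 rose in FoxO against EV, BMPR2, a bone morphogenetic protein receptor (1.69 ± 0.17, adjusted p = 0.00515 in limma). In FoxO3 against EV 4 of the 7 rose, BMPR2 at 2.11, FURIN at 1.66, NEO1 at 1.21 and ACVR1 by the smallest difference of the 4, the last 3 named after their values were seen. Beside the counts of these lists, 6.60% of all genes tested rose and 10.0% fell in FoxO3 against EV, and 3.09% and 4.70% in FoxO against EV. Of 7 heme synthesis genes 1 fell in FoxO against EV, CPOX, a late enzyme of the pathway (-0.66 ± 0.15, adjusted p = 0.0447 in limma). Of 5 heme breakdown genes 1 rose in FoxO against EV, BACH1, the heme-sensing repressor of HMOX1 transcription (1.65 ± 0.20, adjusted p = 0.00688 in limma), while HMOX1 itself was as given above. BACH1 responses were 2.05 in RCC4 FoxO3 and 2.40 in UMRC2 FoxO3, against -0.07 in RCC4 EV and 0.56 in UMRC2 EV. Of 20 iron-sulfur cluster genes none rose and 2 fell in FoxO against EV, CIAO1 and HSPA9, a mitochondrial chaperone (-1.48 ± 0.35 and -0.73 ± 0.13, adjusted p = 0.047 and 0.0176 in limma). In FoxO3 against EV 2 of the 20 rose, the scaffold ISCU at 0.98 and NFU1 at 0.82, and 5 fell, CIAO1 (-1.48), HSPA9 (-1.15), GLRX5 (-1.05), CIAPIN1 (-0.74) and CIAO2A (-0.48); those not named before were chosen after their values were seen. Of the other lists in FoxO3 against EV, uptake had 0 higher and 3 lower, export 2 and 1, storage 0 and 1, sensing 0 and 0, heme synthesis 0 and 1, heme breakdown 1 and 1, and mRNAs with an iron-responsive element 2 and 1. Of 7 mRNAs with a known iron-responsive element 2 rose in FoxO against EV, SLC40A1 and CDC42BPA, a kinase (1.52 ± 0.20, adjusted p = 0.00775 in limma). Without the RCC4 FoxO3 pair, a check added after the values were seen, all 9 of the 64 genes that passed in FoxO against EV passed again, as did 13 of the 19 in FoxO3 against EV, and all 19 kept their sign. CP was then 2.45 and FLVCR1 -1.25 in FoxO3 against EV; FURIN (1.68, adjusted p = 0.0522 in limma), NFU1 (0.81, 0.0786) and CIAO1 (-1.23, 0.153) were among the 6 that missed the threshold. Without that pair FoxO3 has 1 line, so the spread in that fit comes from the other constructs. The lists were chosen with results of these data known, so these counts are descriptions.

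**Figure D5:**
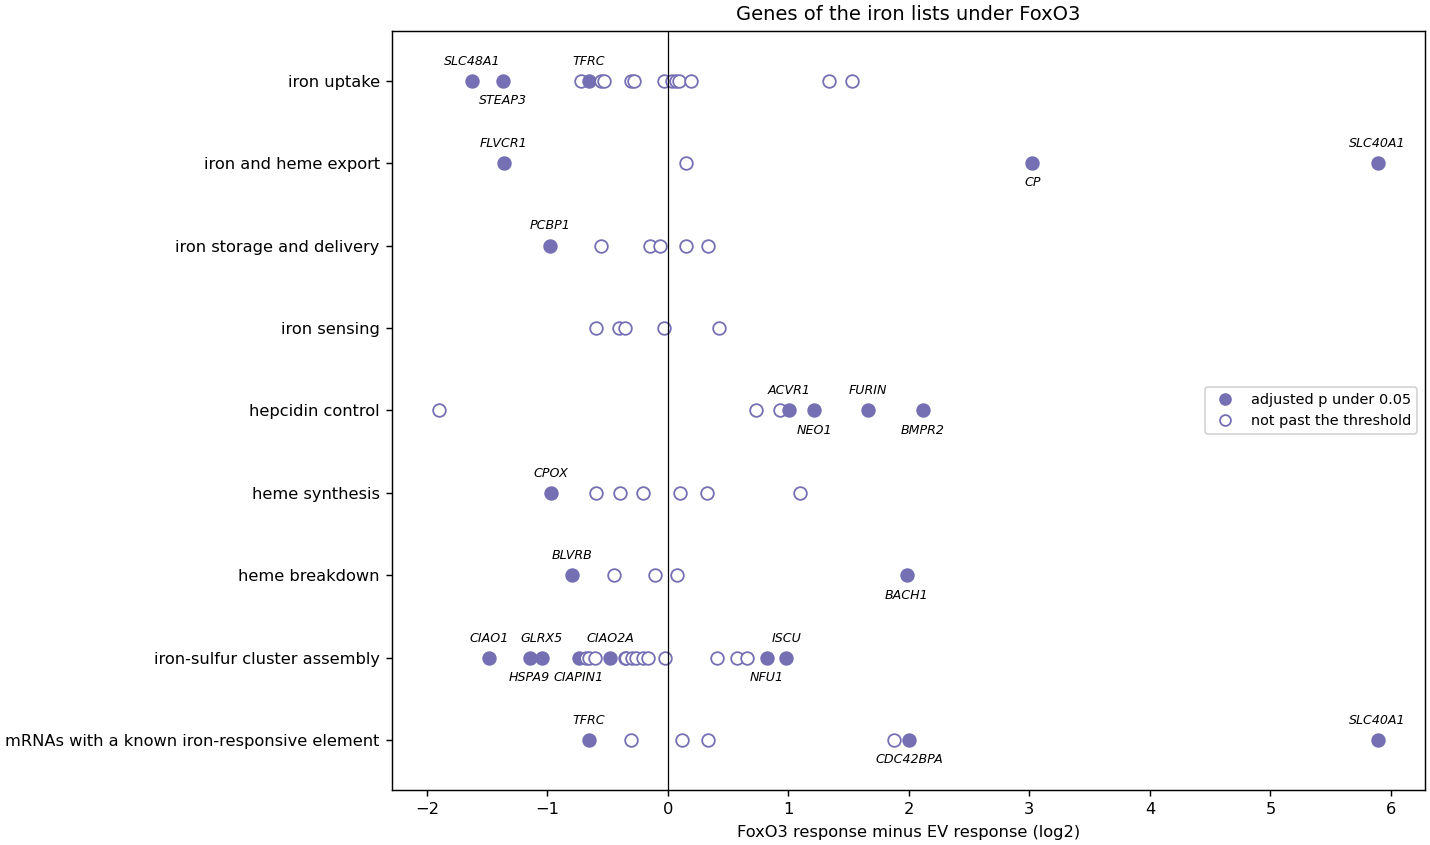
FoxO3 response minus EV response (log2, horizontal axis) of each tested gene of 9 iron lists, 1 circle per gene, filled and labelled where the adjusted p was under 0.05 in FoxO3 against EV, so that labels beyond the genes named in the text follow from their values. SLC40A1 at 5.89 and CP at 3.02 lie furthest right, and SLC48A1 at -1.63 furthest left among the genes that passed.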

How the data were processed

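The authors deposited, per the labels, MAS5 probe set intensity on a linear scale for 12 arrays, 1 per combination of cell line, construct and treatment; the MAS5 version and scaling target are not given in the sources used here. The array median of the deposited intensity ran from 71.1 to 138.7. The arrays hold 54675 probe sets, of which 41091 name 1 gene; 1801 that name several, 11721 unnamed and 62 controls were left out. Values were quantile-normalised, raised to the 20th percentile (intensity 18.4) and put on the log2 scale. The probe set with the highest mean stood for a gene, and a gene was tested if 2 or more arrays reached the array median. limma 3.58.1 under R 4.3.3 was run on the 6 responses, with terms for construct and for cell line (2 residual degrees of freedom, prior degrees of freedom 5.43, prior variance following the mean level), two-sided, with Benjamini-Hochberg adjustment over 14285 genes at 0.05. The 2 vehicle comparisons were fitted in the same way on the 6 vehicle arrays (prior degrees of freedom 4.37). The FoxO response between lines was fitted on the responses with terms for cell line, FoxO or EV, and their interaction (prior degrees of freedom 3.59). The scripts were tested on simulated data. The n of a construct is 2 cell lines; the number of arrays limits precision. The genes named are the 8 measured members and, from each list, up to 3 other genes that passed in FoxO against EV by size of change (where none passed, the 1 with the largest change, members aside), with the 5 genes whose responses were most like those of SLC40A1; FLVCR1, FURIN, NEO1, ACVR1, ISCU, NFU1, GLRX5, CIAPIN1 and CIAO2A were named outside this rule, after their values were seen. The members and lists were chosen with earlier results of these data known. Alternatives were other scalings, floors, filters, probe set choices, prior variance, no cell line term, and each pair left out. Genes without a probe set of their own, 2 of the 10 included, were not analysed here. Promoter sequences are from RefSeq (GRCh38.p14).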

Additional observations from a re-analysis of the deposited data

How the results depend on the processing

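Of 984 values for the 8 genes under the alternatives, 838 kept their sign and side of the threshold, 20 passed it newly, 36 lost it and 90 changed sign, 79 of them with 0 inside the 95% interval of both fits and 11 with an interval off 0 in either; the cause was not tested. With no filter and with a constant prior variance 0 genes passed in FoxO, FoxO1 or FoxO3 against EV or in FoxO3 against FoxO1 (3405, 1719, 4290 and 3132 genes at an unadjusted p under 0.05 with no filter). With the array median required in at least 6 arrays, SLC40A1, which reached it in 5, was not tested. Counts with that filter therefore leave it out, and it has 15 alternatives in these comparisons. Of the 8 genes, those that passed in FoxO against EV (1) were 0 with no filter, an array median in at least 6 arrays, the second brightest probe set or a constant prior, and 1 to 5 with a pair left out, the 5 without the UMRC2 FoxO3 pair. In FoxO1 against EV (0) they were 1 with values as deposited, arrays divided by their median or a floor at the 40th percentile, and 0 to 1 with a pair left out. In FoxO3 against EV (3) they were 1 as deposited, 0 with no filter or a constant prior, 2 with arrays divided by their median, the 6-array filter, the mean or the second probe set, and 1 to 6 with a pair left out. In FoxO3 against FoxO1 (1) they were 0 as deposited, with no filter, the 6-array filter, the mean or second probe set or a constant prior, and 0 to 6 with a pair left out. Between the lines in vehicle (5) they were 3 with no filter or the mean of probe sets, 4 to 7 with the other settings and 4 to 5 with an array left out. The 11 sign changes with an interval off 0 were HMOX1 at 0.39 (FoxO; range with a pair left out -0.73 to 0.45) and 0.95 (FoxO3; -1.16 to 0.95) without the RCC4 FoxO3 pair and -0.99 (FoxO3 against FoxO1; -0.99 to 1.13) without the UMRC2 FoxO3 pair, SLC40A1 at -0.14 (FoxO1) by its second probe set, and, between lines, FTL at 0.37, SLC11A2 at 0.52 and TFRC at 0.93 as deposited, TFRC at 0.29 median-scaled, SLC11A2 at 0.36 and TFRC at 0.22 by the mean of probe sets, and FTL at 0.29 by its second. SLC40A1 passed in FoxO against EV in 12 of 15 alternatives (0.44 to 5.13), in FoxO3 in 12 of 15 and in FoxO1 in 6 of 15; TFRC and STEAP3 passed in FoxO3 in 8 and 11 of 16. As deposited, the median of all genes was -0.42 in FoxO3 against EV, beside -0.07 after normalisation, and 21.6% of the genes that passed were higher, beside 39.7%; in FoxO1 against EV 75% of 36 were higher with arrays divided by their median, beside 100% of 12; between the lines the median was 0.77 as deposited, beside 0.06. Where a left-out pair leaves a construct with 1 line, that line is assumed to vary like the others. The comparison of the FoxO response between lines could not be fitted without an EV pair. The pairing of 4OHT and vehicle arrays within a line is part of every response. The labels give no replicate numbers, so the main fit used no block beyond the cell line term.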
